A study of Mus musculus with 8 samples.

Results

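Bulk RNA of mouse brain was examined for 9 genes that encode transcription factors of striatal neurons: Foxp1, Foxp2, Bcl11b, Ebf1, Isl1, Rxrg, Meis1, Meis2 and Six3. The 9 genes are measured by 20 probe sets of the 22626 tested, each chosen because the platform annotation gives it one of these symbols and no other. The deposited table holds 8 single-channel Affymetrix Mouse430A_2 arrays, 4 from mice with a brain-specific knockout of SIRT1 (BSKO) and 4 from their wild-type littermates (WT). All animals were males of strain C57/B6 aged 3 months, the 4 arrays of a genotype are biological replicates of whole brain, and SIRT1 is an NAD-dependent protein deacetylase. The driver of the knockout, the deleted part of the gene, and whether an array holds 1 animal or a pool are not stated in the labels. Each probe set in the deposited log2 table had been centred on its median over the 8 arrays. The values therefore compare arrays with one another and say nothing of how strongly a gene was expressed. For the same reason the labelled tissue could not be checked by the level of its markers, and no gene's level is set against another's. The genes were chosen with the difference between BSKO and WT known, so those differences are given as descriptions, with their standard errors (SE). No p-value is printed for a member probe set, and counts of members that passed a threshold are descriptions too.

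The striatum is the input station of the basal ganglia, and most of its neurons are GABAergic projection neurons that carry either the D1 or the D2 dopamine receptor. Foxp1 and Foxp2 encode forkhead repressors that bind DNA as dimers, with each other as well as with themselves. Bcl11b (also known as Ctip2) is needed for projection neurons to mature, Ebf1 and Isl1 act in the D1-type neurons of the direct pathway, and Isl1 is also a factor of cholinergic interneurons. Rxrg encodes a retinoid X receptor, the partner of retinoic acid receptors. Meis1, Meis2 and Six3 encode homeodomain factors of the embryonic ventral forebrain, where striatal neurons are born.

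Promoter windows from RefSeq (build GRCm38.p6), which run from 250 bases before to 50 after an annotated start, were matched by symbol for 8 of the 9 genes, with 12 windows in all. The windows of Foxp1, whose 7 probe sets give the most data, and of Rxrg, which had the largest difference without BSKO 2, are shown. They were searched on both strands for TGTTTA (forkhead), AGGTCA (a half-site of retinoid receptors), TGACAG (MEIS) and CCCNNGGG (EBF), no 2 of which overlapped here, and capitals mark the matches.
Foxp1 chr6:99520944-99521243, minus strand: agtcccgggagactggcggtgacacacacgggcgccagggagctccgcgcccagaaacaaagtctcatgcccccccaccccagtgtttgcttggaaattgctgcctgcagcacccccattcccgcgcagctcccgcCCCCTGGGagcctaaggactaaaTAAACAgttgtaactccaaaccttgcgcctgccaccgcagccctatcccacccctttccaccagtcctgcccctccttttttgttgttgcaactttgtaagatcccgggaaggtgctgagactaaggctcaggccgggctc
Foxp1 chr6:99266466-99266765, minus strand: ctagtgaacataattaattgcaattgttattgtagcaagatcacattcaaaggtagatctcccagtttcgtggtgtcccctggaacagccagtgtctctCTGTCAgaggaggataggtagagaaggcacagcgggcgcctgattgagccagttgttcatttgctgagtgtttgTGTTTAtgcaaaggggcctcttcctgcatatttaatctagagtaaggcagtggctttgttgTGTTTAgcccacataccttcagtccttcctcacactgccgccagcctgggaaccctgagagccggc
Foxp1 chr6:99028249-99028548, minus strand: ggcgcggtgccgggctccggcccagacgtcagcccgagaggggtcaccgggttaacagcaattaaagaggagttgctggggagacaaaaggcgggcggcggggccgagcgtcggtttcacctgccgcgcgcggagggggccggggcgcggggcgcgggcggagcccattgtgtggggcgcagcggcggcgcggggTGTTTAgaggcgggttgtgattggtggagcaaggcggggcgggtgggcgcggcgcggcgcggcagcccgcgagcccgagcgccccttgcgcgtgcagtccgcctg
Rxrg chr1:167598112-167598411, plus strand: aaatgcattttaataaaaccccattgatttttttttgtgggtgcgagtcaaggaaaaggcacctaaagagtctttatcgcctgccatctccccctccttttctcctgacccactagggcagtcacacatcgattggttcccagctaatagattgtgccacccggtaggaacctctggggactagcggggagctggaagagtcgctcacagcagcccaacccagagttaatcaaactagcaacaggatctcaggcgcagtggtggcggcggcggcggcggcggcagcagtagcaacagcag
Rxrg chr1:167618015-167618314, plus strand: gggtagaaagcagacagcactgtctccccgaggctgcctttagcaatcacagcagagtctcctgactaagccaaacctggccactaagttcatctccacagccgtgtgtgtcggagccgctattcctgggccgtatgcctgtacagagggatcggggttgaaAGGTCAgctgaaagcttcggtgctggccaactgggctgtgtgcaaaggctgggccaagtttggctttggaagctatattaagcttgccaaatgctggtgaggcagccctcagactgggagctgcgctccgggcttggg

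All 3 Foxp1 windows held TGTTTA, with 2 matches in the second, and none of the other 9 windows of the members did. Of 32851 RefSeq windows of this length, 13.4% held it. AGGTCA was found in 1 of the 12 windows, the second of Rxrg, against 16.3% of all windows. TGACAG was found in 2 (the second Foxp1 window and that of Six3, against 19.2%) and CCCNNGGG in 2 (the first Foxp1 window and that of Bcl11b, against 13.7%). These are matches of letters and not measured binding sites.

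The arrays differed in ways that touch every value below. On BSKO 2 the SD over all tested probe sets was 0.831, against 0.150 to 0.314 on the other 7 arrays. The log2 difference between the 5' and 3' control probe sets of beta-actin was -2.44 on BSKO 2 and between -0.10 and 0.49 elsewhere, and that of Gapdh was -2.43 against -0.07 to 0.09. Sirt1 itself, on its 1 probe set, differed by -0.50 (SE 0.31, limma adjusted p = 0.549) between BSKO and WT with 8 arrays and by -0.15 (SE 0.10, limma adjusted p = 0.428) without BSKO 2. WT 1 and WT 2 stood apart from WT 3 and WT 4 for striatal markers, so the members' differences are also given within replicates 1-2 and within replicates 3-4. In whole-brain RNA, fewer cells of a type and less RNA per cell cannot be told apart.

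All 20 probe sets had a higher mean in BSKO than in WT, with 8 arrays and also without BSKO 2. The differences ran from 0.17 to 1.48 on the log2 scale with 8 arrays (median 0.60, against 0.02 over all tested probe sets). Without BSKO 2 they ran from 0.12 to 1.48 (median 0.85, against 0.01). Over all probe sets, 53.5% of differences lay above 0 with 8 arrays and 52.2% without BSKO 2. With 8 arrays, none of the 20 passed an adjusted p of 0.05 (limma with Benjamini-Hochberg adjustment over all probe sets), where 0.0309% of all probe sets did (0.00884% as higher). At an unadjusted p under 0.05 there were 10 of 20, against 10.8% of all, and 16 of 20 without BSKO 2, against 19.8% of all. Without BSKO 2, 4 of 20 passed, 3 of Foxp1 and the 1 of Foxp2, all higher in BSKO, where 0.495% of all probe sets were called as higher and 1.63% were called in all. The 4 BSKO arrays lay wholly above the 4 WT arrays for 9 of the 20 (5.67% of all probe sets), and for 12 of the 20 without BSKO 2 (9.21%). As the genes were chosen on this contrast, nothing is read from these shares.

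**Figure D1:**
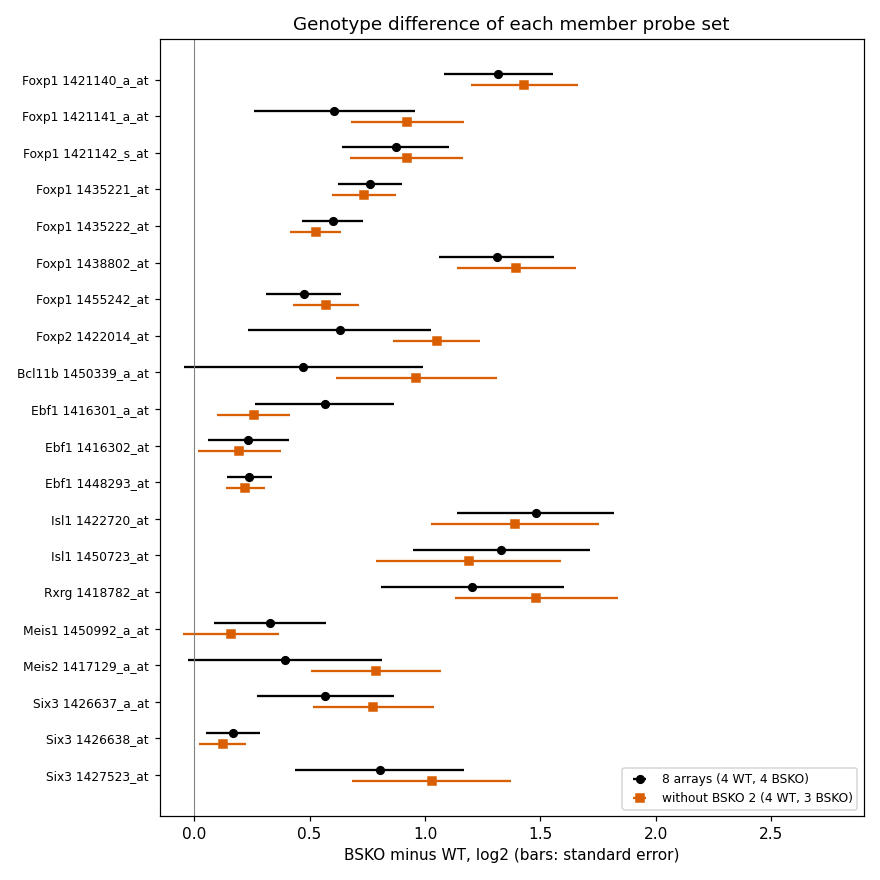
Difference between BSKO and WT on the log2 scale (x axis) for each of the 20 member probe sets (y axis), with 8 arrays (circles) and without BSKO 2 (squares); bars are standard errors of the limma fit. Every point lies above 0, from 0.12 to 1.48, and the widest bar is that of Bcl11b with 8 arrays.

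Foxp1 was higher in BSKO on each of its 7 probe sets, 3 of which passed the test without BSKO 2. Probe set 1421140_a_at read -0.45, -0.43, -0.35 and -0.47 on WT 1 to 4 and 0.35, 0.56, 1.46 and 1.20 on BSKO 1 to 4. The WT arrays were within 0.12 of each other, every BSKO array lay above them, and BSKO 3 and BSKO 4 were highest. Its mean was -0.43 ± 0.05 (SD, n = 4) in WT and 0.89 ± 0.52 (n = 4) in BSKO, which is 2.49-fold higher (log2 difference 1.32, SE 0.24, and 1.43, SE 0.23, without BSKO 2). Probe set 1438802_at had the same shape, with -0.64, -0.45, -0.30 and -0.48 in WT and 0.30, 0.59, 1.56 and 0.92 in BSKO. Here the difference was 1.31 (SE 0.25), or 1.39 (SE 0.26) without BSKO 2, and the genotypes again did not overlap. The third probe set that passed without BSKO 2, 1435221_at, had a smaller difference of 0.76 (SE 0.14), or 0.74 (SE 0.14) without that array, from -0.45, -0.48, -0.20 and -0.15 in WT and 0.15, 0.52, 0.67 and 0.43 in BSKO.

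The other 4 probe sets of Foxp1 differed by 0.47 to 0.87 with 8 arrays and by 0.53 to 0.92 without BSKO 2, and none of them passed in either fit. Probe set 1421142_s_at read -0.82, -0.74, -0.07 and -0.15 in WT and 0.07, 0.28, 0.88 and 0.47 in BSKO, with WT 1 and WT 2 low and no overlap. On 1435222_at, BSKO 2 (0.57) was the highest array, and on 1455242_at it (0.01) lay just above WT 4 (-0.01). On 1421141_a_at the array read -0.68, close to WT 1 (-0.66) and WT 2 (-0.72), while BSKO 1, 3 and 4 read 0.22, 0.96 and 0.55. The 7 probe sets spread from -0.68 to 0.59 on BSKO 2, from 0.36 to 1.56 on BSKO 3 and from 0.40 to 1.20 on BSKO 4, against -0.82 to -0.33 on WT 1. All 7 values were above 0 on BSKO 3 and BSKO 4, and they lay on both sides of 0 on BSKO 2. Among the 7, the genotypes overlapped on 1421141_a_at alone. The part of the 5' to 3' differences of the control probe sets on BSKO 2 in that overlap was not tested. The mean of the 7 probe sets was -0.53, -0.50, -0.15 and -0.20 on WT 1 to 4 and 0.18, 0.26, 0.92 and 0.64 on BSKO 1 to 4. The 7 are listed under 3 source sequences, so they are not independent measures, and 1 of them (1421142_s_at) is of a type that can bind more than one transcript.

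**Figure D2:**
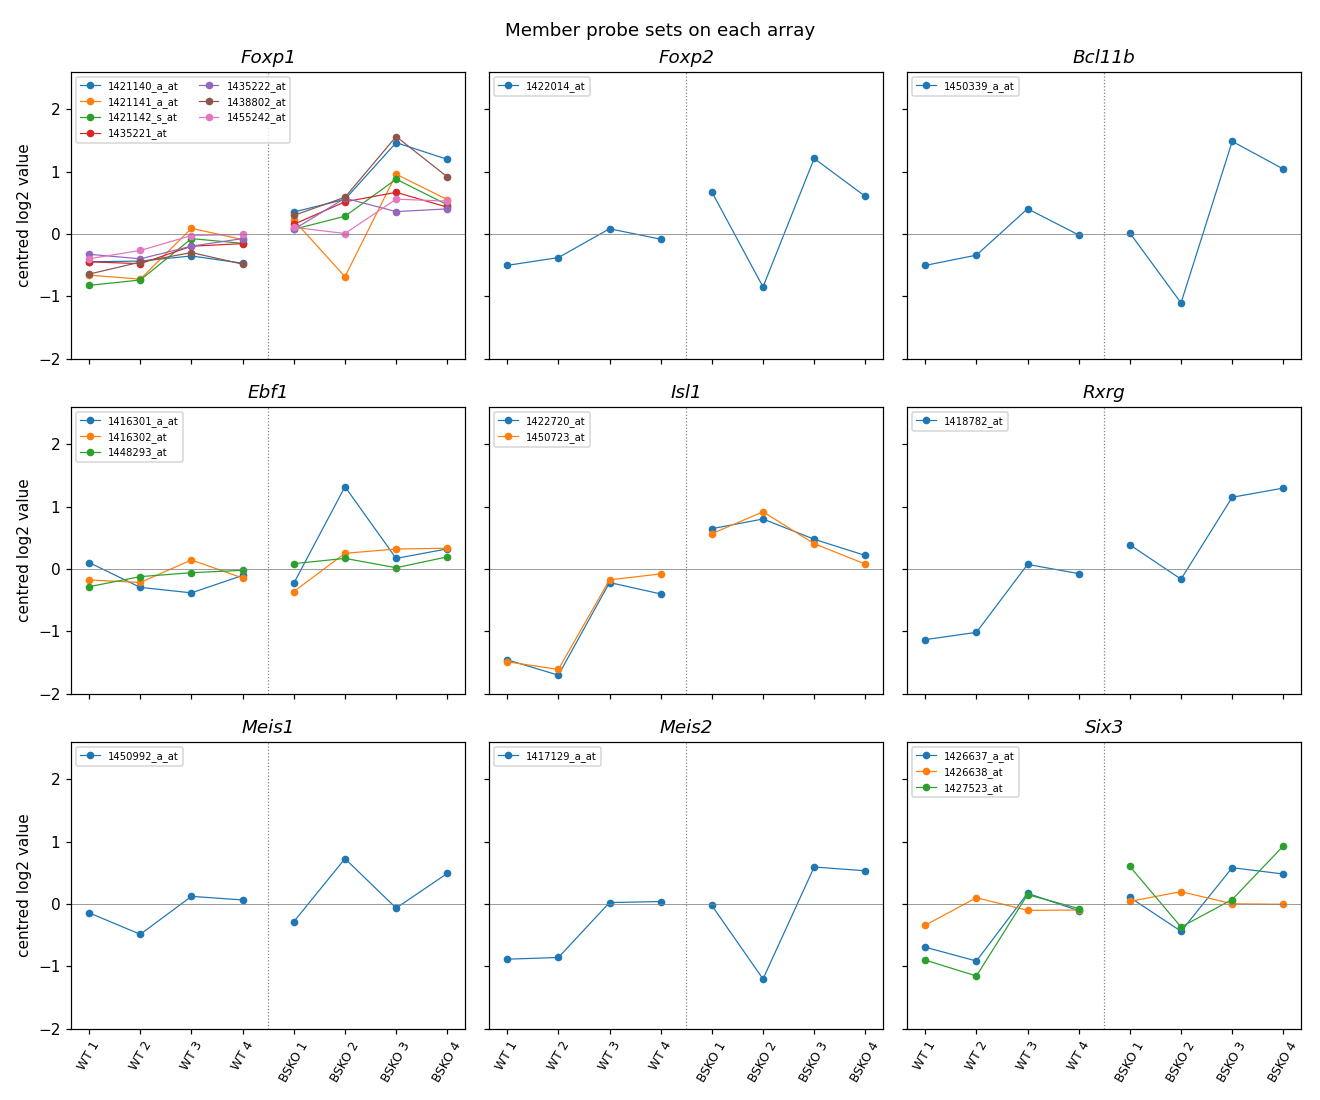
Centred log2 value (y axis) of each member probe set on the 8 arrays (x axis), 1 panel per gene, with the WT arrays left of the dotted line; lines join points of the same probe set and imply no order of replicates. For Foxp1 the BSKO arrays lie above the WT arrays except on 1421141_a_at, where BSKO 2 reads -0.68, and for Foxp2, Bcl11b and Meis2 BSKO 2 is the lowest array.

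Foxp2, the close relative of Foxp1 with which it can pair, is measured by 1 probe set, 1422014_at. It read -0.50, -0.38, 0.08 and -0.08 on WT 1 to 4, and 0.67, -0.85, 1.21 and 0.60 on BSKO 1 to 4. BSKO 1, 3 and 4 lay above every WT array and BSKO 2 below every one. With 8 arrays the means were -0.22 ± 0.27 (SD, n = 4) in WT and 0.41 ± 0.88 (n = 4) in BSKO, a difference of 0.63 (SE 0.40). Without BSKO 2 the BSKO mean was 0.83 ± 0.33 (n = 3) and the difference 1.05 (SE 0.19), or 2.07-fold, and the probe set was among the 4 that passed.

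Rxrg and Isl1 had differences as large as those of Foxp1 and a much wider spread in WT. Rxrg (1418782_at) read -1.13, -1.02, 0.07 and -0.07 on WT 1 to 4 and 0.39, -0.16, 1.15 and 1.30 on BSKO 1 to 4. WT 1 and WT 2 were the lowest arrays and BSKO 2 lay below WT 3 and WT 4, so the genotypes overlapped through that array. The difference was 1.21 (SE 0.40), and 1.48 (SE 0.35) without BSKO 2, with means of -0.54 ± 0.63 (SD, n = 4) in WT and 0.95 ± 0.49 (n = 3) in BSKO. Isl1 read -1.46, -1.70, -0.22 and -0.40 in WT and 0.65, 0.80, 0.48 and 0.22 in BSKO on 1422720_at. On its second probe set, 1450723_at, it read -1.49, -1.61, -0.17 and -0.08 in WT and 0.57, 0.92, 0.41 and 0.08 in BSKO. Both probe sets come from one source sequence, both separated the genotypes, and on both BSKO 2 was the highest array and BSKO 4 the lowest of its group. The differences were 1.48 (SE 0.34) and 1.33 (SE 0.38) with 8 arrays and 1.39 (SE 0.36) and 1.19 (SE 0.40) without BSKO 2. None of these 3 probe sets passed in either fit.

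Bcl11b, on probe set 1450339_a_at, read -0.50, -0.34, 0.40 and -0.02 on WT 1 to 4 and 0.02, -1.11, 1.49 and 1.04 on BSKO 1 to 4. BSKO 3 and BSKO 4 were above every WT array, BSKO 1 was below WT 3, and BSKO 2 was the lowest of all. Its difference was 0.47 (SE 0.52) with 8 arrays and 0.96 (SE 0.35) without BSKO 2. For Ebf1 the 3 probe sets, all from one source sequence, differed by 0.23 to 0.57 with 8 arrays and by 0.20 to 0.26 without BSKO 2. The largest, 1416301_a_at, rested on BSKO 2, which read 1.32 where the other BSKO arrays read -0.23, 0.17 and 0.32 and the WT arrays 0.10, -0.29, -0.38 and -0.10. On 1448293_at the genotypes did not overlap, but WT 4 (-0.02) and BSKO 3 (0.02) were the nearest arrays of the 2 groups and the difference was 0.24 (SE 0.10). None of the 4 probe sets of Bcl11b and Ebf1 passed in either fit.

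For Meis1, Meis2 and Six3 the genotypes overlapped on all 5 probe sets in both fits. Meis2 (1417129_a_at) read -0.88, -0.86, 0.02 and 0.04 on WT 1 to 4 and -0.02, -1.20, 0.59 and 0.53 on BSKO 1 to 4, so that the means were 0.40 apart (SE 0.42), or 0.79 (SE 0.28) without BSKO 2. Its relative Meis1 (1450992_a_at) read -0.14, -0.49, 0.12 and 0.07 in WT and -0.28, 0.73, -0.07 and 0.49 in BSKO, with means 0.33 apart (SE 0.24), or 0.16 (SE 0.21) without BSKO 2. Thus BSKO 2 was the lowest of the 8 arrays for Meis2 and the highest for Meis1. The 3 probe sets of Six3 did not behave alike. On 1426637_a_at Six3 read -0.69, -0.91, 0.17 and -0.11 in WT and 0.11, -0.44, 0.58 and 0.48 in BSKO, and on 1427523_at it read -0.90, -1.15, 0.15 and -0.07 in WT and 0.60, -0.37, 0.07 and 0.93 in BSKO. Both had WT 1 and WT 2 as the lowest arrays, with differences of 0.57 (SE 0.30) and 0.80 (SE 0.37), or 0.78 (SE 0.26) and 1.03 (SE 0.34) without BSKO 2. The third, 1426638_at, stayed between -0.34 and 0.20 on all arrays and differed by 0.17 (SE 0.12).

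Within replicates 1-2 the difference was above 0 for 19 of the 20 probe sets and within replicates 3-4 for all 20. Over all tested probe sets 29.8% were above 0 in both, and 19 of the 20 members were. The members' median was 0.64 within replicates 1-2 and 0.55 within replicates 3-4, against 0.04 and 0.0032 over all probe sets. The exception was Bcl11b, with -0.12 within replicates 1-2, which hold BSKO 2, and 1.07 within replicates 3-4. Foxp1 ranged over its probe sets from 0.39 to 0.99 within replicates 1-2 and from 0.51 to 1.74 within replicates 3-4, and Rxrg was near equal in both, with 1.19 and 1.22. For 11 of the 20 probe sets the value was larger within replicates 1-2, among them 3 of the 7 of Foxp1. The gap was widest for Isl1, with 2.30 and 2.29 on its probe sets within replicates 1-2 and 0.66 and 0.37 within replicates 3-4. The 3 probe sets of Six3, in the order of their numbers, had 0.64, 0.24 and 1.14 within replicates 1-2 and 0.50, 0.10 and 0.46 within replicates 3-4. Those of Ebf1 had 0.64, 0.14 and 0.33 against 0.49, 0.33 and 0.15, and Meis1 had 0.54 against 0.12. Foxp2 had 0.35 and 0.91, and Meis2 0.26 and 0.53. With 2 arrays per genotype in each comparison these are values without a test.

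**Figure D3:**
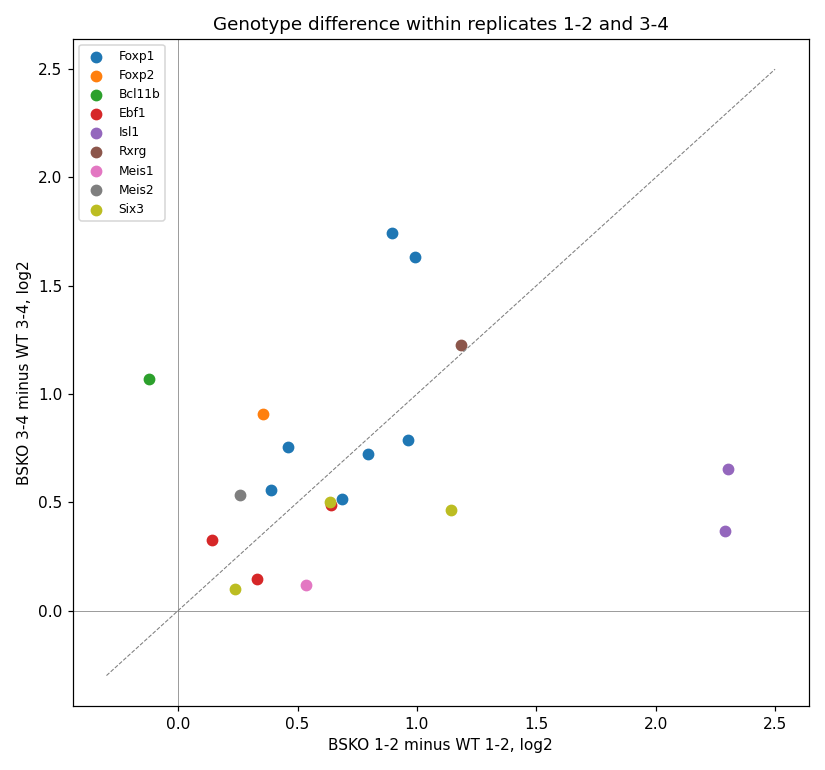
BSKO minus WT on the log2 scale within replicates 1-2 (x axis) and within replicates 3-4 (y axis), 1 point per member probe set, coloured by gene; the dashed line marks equal values. Both Isl1 probe sets lie far below the line (2.30 and 2.29 on the x axis), Rxrg lies on it and Bcl11b is the 1 point left of 0.

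The spread among the WT arrays was shared by most members. WT 3 and WT 4 were both above WT 1 and WT 2 on 16 of the 20 probe sets, where 23.0% of all probe sets were. The step from the mean of WT 1 and WT 2 to that of WT 3 and WT 4 had a median of 0.42 over the members, and the median size of this step over all probe sets was 0.10. It was 1.42 and 1.27 for the Isl1 probe sets, 1.07 for Rxrg, 1.07 and 0.84 for 2 probe sets of Six3, 0.90 for Meis2, 0.62 for Bcl11b and 0.44 for Foxp2. For 12 of the 20 probe sets the range of the WT arrays was larger than the genotype difference with 8 arrays. The share over all tested probe sets was not counted, so nothing is read from this count. The Foxp1 probe sets with the largest genotype differences had steps in WT of 0.03 on 1421140_a_at and 0.16 on 1438802_at. The steps were 0.29 on 1435221_at, 0.23 on 1435222_at and 0.31 on 1455242_at. On 1421141_a_at (0.69) and 1421142_s_at (0.67) the WT steps were large. The BSKO arrays differed on 1421140_a_at and 1438802_at. From BSKO 1 to the mean of BSKO 3 and BSKO 4 the step was 0.98 on 1421140_a_at and 0.94 on 1438802_at. No label gives the split into replicates 1-2 and 3-4. It was made because WT 1 and WT 2 stood apart for striatal markers. With this split as a term in the fit of 8 arrays, 3 of the 20 passed. They were Rxrg and, of Foxp1, 1421140_a_at and 1421142_s_at. Of all probe sets 0.371% were called in that fit (0.186% as higher). With that term and without BSKO 2, which was tried after seeing the data, 11 passed, where 3.29% of all were called (1.33% as higher). They were all 7 probe sets of Foxp1 and those of Foxp2, Rxrg, Meis2 and 1 of Six3 (1426637_a_at). The split was chosen from these same arrays and the members on this contrast, so nothing is read from these counts.

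**Figure D4:**
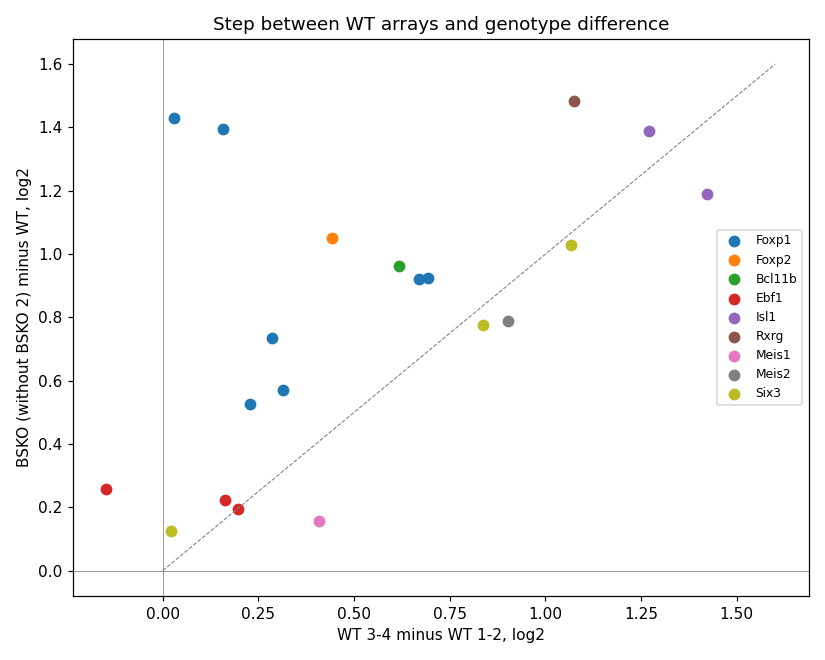
Step among WT arrays (x axis, mean of WT 3 and WT 4 minus mean of WT 1 and WT 2, log2) against the genotype difference without BSKO 2 (y axis, log2), 1 point per member probe set; the dashed line marks equal values. Isl1 and Rxrg have steps of 1.07 to 1.42, and 2 Foxp1 probe sets with differences of 1.43 and 1.39 have steps of 0.03 and 0.16. The remaining Foxp1 probe sets have steps from 0.23 to 0.69.

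Markers of the cells in which these genes are known to act varied over the arrays in a similar way. Of 16 listed markers of striatal projection neurons, 10 were measured, on 16 probe sets, and all 16 had a higher mean in BSKO (median difference 1.35, and 1.51 without BSKO 2). None passed in either fit, and 13 had an unadjusted p under 0.05 with 8 arrays, against 10.8% of all probe sets. Of all probe sets 53.5% had a higher mean in BSKO with 8 arrays. As the list was written with earlier results of these data known, nothing is read from these shares. Among the 13 were probe sets of the D2 dopamine receptor gene Drd2 (1.79, SE 0.36, limma adjusted p = 0.153) and the small GTPase gene Rasd2 (1.46, limma adjusted p = 0.280). Another was of Rgs9, a regulator of G protein signalling (2.25, limma adjusted p = 0.288). The second probe set of Rasd2 differed by 1.05 and that of Rgs9 by 0.82 with 8 arrays. Over WT 1 to 4 the medians of the list were -1.53, -1.61, -0.03 and -0.08, against 0.07, 0.11, 1.03 and 0.99 over BSKO 1 to 4. Foxp1, as the mean of its probe sets, read -0.53, -0.50, -0.15 and -0.20 on WT 1 to 4. Its step between WT 1-2 and WT 3-4 was smaller than that of this list (1.52). Its genotype difference with 8 arrays was also smaller (0.85, against the median of 1.35). The list of cholinergic neurons, 6 of 8 genes measured, had medians of -0.92 and -0.69 on WT 1 and WT 2, near 0 on WT 3 and WT 4, and of 0.29, 0.55, 0.09 and 0.03 in BSKO. On WT 1 and WT 2, Lhx8 read -5.13 and -5.09 and Ecel1 -0.99 and -1.12. Slc18a3 (-0.86 and -0.75) and Slc5a7 (-0.97 and -0.63) were also low there. Zic1 (-0.04 and 0.14) and Gbx2 (0.46 and 0.29) were not. Over the BSKO arrays its genes did not share one pattern. Slc18a3 and Slc5a7, which encode the transporters of acetylcholine and choline, read -0.14 and -0.01 on BSKO 2, below their values on BSKO 3 (0.48 and 0.46), while Lhx8, Zic1 and Ecel1 were highest on BSKO 2 and Gbx2 on BSKO 1. Markers of midbrain dopamine neurons, 9 of 10 measured, went the other way, with 1.24, 1.14, -0.15 and -0.04 in WT and -0.22, -0.03, -1.10 and 0.11 in BSKO. The part of these cell populations in the members' differences was not tested.

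**Figure D5:**
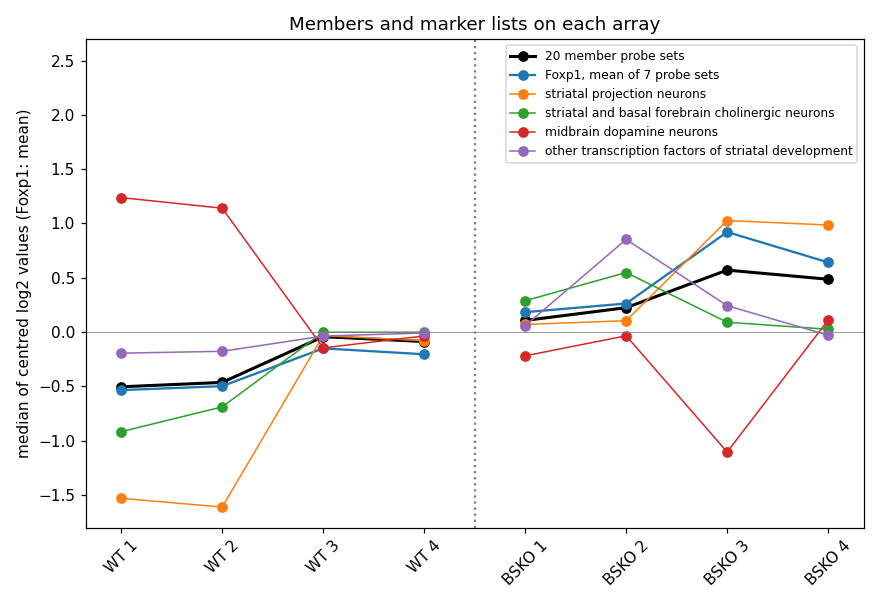
Median centred log2 value of the 20 member probe sets and of the gene lists on each array (y axis; for Foxp1, the mean of its 7 probe sets), with the WT arrays left of the dotted line; lines imply no order of replicates. The striatal projection neuron list runs from -1.61 on WT 2 to 1.03 on BSKO 3, and the midbrain dopamine list is high on WT 1 and WT 2 (1.24 and 1.14).

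Other places where members are known to be expressed differed less. The median difference of the Purkinje cell list, where Foxp2 is also expressed, was 0.0021 with 8 arrays and 0.09 without BSKO 2. That of thalamic neurons, another site of Foxp2, was -0.18 and -0.30, with 1 of 16 probe sets above 0 without BSKO 2 (52.2% of all). Deep-layer cortical neurons had -0.26 and -0.13, and olfactory bulb neurons 0.04 and -0.05. The medians of the lists of astrocytes (-0.15 and -0.11), oligodendrocytes (-0.05 and 0.0029), microglia and blood cells (0.14 and 0.10) and choroid plexus (-0.34 and -0.38) were smaller in size than that of the striatal list. Single genes of these lists that passed are named here after their values were seen. Ighm, the immunoglobulin mu heavy chain, rose by 1.89 on 1 probe set with 8 arrays (limma adjusted p = 0.0208) and by 1.79 and 1.90 on 2 without BSKO 2 (limma adjusted p = 0.0104 for both). The remaining Ighm probe sets passed in neither fit. They differed by 0.11 to 1.47 with 8 arrays and by -0.01 to 1.65 without BSKO 2. Without BSKO 2, Doc2g of the olfactory bulb list rose by 0.61 (limma adjusted p = 0.0398) and Bcl6 of the deep-layer list fell by 0.58 (limma adjusted p = 0.0170). On the arrays, the thalamic list ranged from -0.06 to 0.22 in WT and from -0.99 to 0.32 in BSKO. The choroid plexus list ranged from -0.13 to 0.38 in WT and from -1.82 to 0.67 in BSKO.

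Relatives and partners of the members were counted next. Of 22 such genes 18 were measured, on 29 probe sets, with a median difference of 0.08, or -0.01 without BSKO 2. None passed in either fit, and 2 of the 29 had an unadjusted p under 0.05 with 8 arrays, against 10.8% of all probe sets. The PBX factors, which bind DNA together with MEIS proteins, included Pbx3 (0.49, SE 0.15, limma adjusted p = 0.330) and Pbx4 (0.23, limma adjusted p = 0.475), while Six4, a relative of Six3, differed by -0.69 (SE 0.22, limma adjusted p = 0.341) on one probe set and by 0.05 on the other. Rarb, a retinoic acid receptor that pairs with retinoid X receptors, is named after its values were seen. It read -1.10, -1.49, -0.12 and 0.12 in WT and 0.14, -0.88, 0.79 and 0.77 in BSKO, with WT 1, WT 2 and BSKO 2 low, and differed by 0.85 (SE 0.47, limma adjusted p = 0.524), or by 1.21 (SE 0.39, limma adjusted p = 0.152) without BSKO 2. Of 16 other factors of striatal development, 13 were measured, on 21 probe sets, with a median of 0.35, or 0.20 without BSKO 2. None passed in either fit, and 2 of the 21 had an unadjusted p under 0.05 with 8 arrays, against 10.8% of all probe sets. The homeobox genes Dlx6 (0.97, SE 0.26, limma adjusted p = 0.274) and Dlx5 (0.99, SE 0.36, limma adjusted p = 0.390), which act in newborn GABAergic neurons, and the zinc finger gene Zfp503 (0.58, SE 0.26, limma adjusted p = 0.465) had the smallest p. Without BSKO 2, Dlx6 differed by 1.01, Dlx5 by 0.75 and this probe set of Zfp503 by 0.30. Dlx5 and Zfp503 were highest on BSKO 2 (1.10 and 1.25). The second probe set of Zfp503 differed by 0.62, or by 0.30 without BSKO 2. On BSKO 2 the median of this list was 0.85, and on the other 7 arrays it lay between -0.19 and 0.24.

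Factors of cortical projection neurons were also compared, as a list written with earlier results of these data known. Of 16 genes 11 were measured, on 22 probe sets, with a median of -0.13, or 0.06 without BSKO 2, and none passed the adjusted p with 8 arrays, where 0.0309% of all probe sets did. At an unadjusted p under 0.05 there were 8 of the 22, against 10.8% of all. Without BSKO 2, 3 probe sets fell, both of Neurod1 and 1 of Lhx2, where 1.14% of all probe sets were called as lower. Neurod1, a basic helix-loop-helix factor, fell by 1.37 and 1.40 (limma adjusted p = 0.0159 and 0.0235) and Lhx2, a LIM homeobox factor, by 0.73 (limma adjusted p = 0.0218). Cux1, a factor of upper cortical layers, differed by 0.94 (SE 0.27, limma adjusted p = 0.295) with 8 arrays on the probe set of smallest p, and from -0.14 to 0.51 on its other 5.

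The genes whose values were most like those of Foxp1 and Foxp2 were sought among 20360 probe sets of other genes, over the 7 arrays without BSKO 2, by Pearson's r. For Foxp1 (1438802_at, its probe set with the largest variance) they were Dab2ip (r = 0.998), Git2 (0.998), Rasgrp1 (0.996), Scmh1 (0.994) and Pou3f4 (0.992). Rasgrp1, an activator of Ras, read -0.37, -0.18, -0.17 and -0.31 on WT 1 to 4 and 0.17, 1.14 and 0.67 on BSKO 1, 3 and 4. Pou3f4, a POU-domain transcription factor, read -0.51, -0.46, -0.08 and -0.33 in WT and 0.32, 1.32 and 0.69 on the same BSKO arrays. For Foxp2 they were Itm2c (0.984), Syt6 (0.984), Man2c1os (0.983), Rbms1 (0.983) and Racgap1 (0.981). Syt6, a synaptotagmin, had the widest range of these, from -1.02 on WT 1 to 1.73 on BSKO 3. By deviations from the genotype means over the same 7 arrays, the nearest to Foxp1 were Celf1 (0.999), Cxcl14 (0.997), Ptp4a3 (0.997), Clip4 (0.997) and Slc16a6 (0.996). For Foxp2 they were Nr2c2ap (0.993), Gad2 (0.990), Csnk1d (0.990), Nfu1 (0.989) and Sox4 (0.989). Gad2 makes GABA and read -0.50, -0.39, 0.21 and 0.06 on WT 1 to 4. These are the highest of 20360 values over 7 arrays that share their genotypes, and are given as a description.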

How the data were processed

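Total RNA of whole brain was hybridised to 8 arrays, and RMA was used by the authors, per the submitters' processing notes (version not given in the sources used here). Their deposited log2 values cover 22690 probe sets. Of these, 22689 have a median over the 8 arrays within 1e-05 of 0, a centring that no label records, and 1 does not. The 64 control probe sets were left out and 22626 were tested, with no filter on dim probe sets, since centred values carry no brightness. Gene symbols came from the platform annotation, updated by gene number to RefSeq (GRCm38.p6). Of the tested probe sets 20380 had 1 symbol, 691 several and 1555 none, and no symbol changed.

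The genotypes were compared in R 4.3.3 by limma 3.58.1 (lmFit, eBayes, no covariate, two-sided, Benjamini-Hochberg over all 22626, threshold 0.05). SE is the limma standard error, and SD is over arrays. The labels do not say that same-numbered arrays belong together. Precision is limited by the small number of arrays. The members and gene lists were chosen with earlier results of these data known. Every member probe set is named. Of each list of factors, genes called with 8 arrays or without BSKO 2 were named, filled up to 3 by the smallest p, and of the marker lists the striatal one was named in the same way. For likeness, the 5 genes of highest r were named. The alternatives were leaving out each array, a replicate block, replicates 1-2 against 3-4 as a term or alone, quantile normalization, centring of arrays, array weights, trend and robust settings, 1 value per gene, no cross-hybridising probe sets and a threshold of 0.10. The scripts were tested on simulated data. Figures were drawn with matplotlib 3.10.9.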

Additional observations from a re-analysis of the deposited data

Results flagged for a closer look

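Among the 40 groups of 4 arrays (20 probe sets in 2 genotypes), 1 held an array far from the others. On Ebf1 probe set 1416302_at, BSKO 1 read -0.36, and its gap to the next BSKO array was 0.883 of the range of the group, above Dixon's critical value for 4 samples. Chance sets apart about 1 in 20 such groups.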

How the results depend on the processing

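All member differences kept their direction in the fits that were run. The 1 exception among the values within replicates was Bcl11b within replicates 1-2 (-0.12). The count of member probe sets called was 0 with 8 arrays, where 7 of all 22626 were called. It was 5 after quantile normalization (678 of all 22626), 13 with array weights (2617) and 1 with trend and robust settings (108). With replicates 1-2 against 3-4 as a term it was 3 (84 of all), and 11 with that term and without BSKO 2 (744). As 1 value per gene and without BSKO 2, 2 member genes were called (Foxp1 and Foxp2), where 266 of all genes were. Leaving out 1 array gave 0 to 4 calls, with 4 without BSKO 2 (369 of all) and 0 without any other array. As the members were chosen on this contrast, nothing is read from these counts. BSKO 2 had an array weight of 0.0456 and BSKO 4 of 3.69. The median difference was 0.60, 0.88 with array weights, 0.93 as 1 value per gene without BSKO 2, and 0.52 to 0.85 when 1 array was left out. Over all probe sets the count was 7, 2617 with array weights, 678 after quantile normalization, 108 with trend and robust settings, 84 with the term, 744 with the term and without BSKO 2, 266 per gene without BSKO 2, 4 without cross-hybridising probe sets, 66 at a threshold of 0.10, and 0 to 369 when 1 array was left out (369 without BSKO 2, 2 without WT 1 or BSKO 3, 1 without WT 2 or WT 3, 0 without WT 4). For the cortical list it was 0, 6 with array weights, 2 after quantile normalization, 1 with trend and robust settings, with the term, per gene or at a threshold of 0.10, 2 per gene without BSKO 2, 3 with the term and without BSKO 2, and 0 to 3 with 1 array left out. For the striatal development list it was 0, 2 with array weights or with the term and without BSKO 2, and 1 after quantile normalization. For the relatives it was 0, 5 with array weights, and 2 with the term and without BSKO 2. The cause of these shifts was not tested.

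With the replicate number as a block, 0 member probe sets and 0 of all probe sets were called, with the same median difference of 0.60, and without BSKO 2 the blocked fit also called 0 (median 0.74). Deviations of same-numbered arrays from their genotype means correlated at 0.09, 0.06, 0.14 and 0.13 over all probe sets. WT 1, WT 2 and WT 3 were nearest to another number, so the numbers were not taken to pair the arrays. By sign, the correlations of WT with BSKO arrays followed the split of replicates 1-2 against 3-4. Within 1-2 and within 3-4 every correlation of a WT with a BSKO array was above 0 (0.03 to 0.17). Between 1-2 and 3-4 every one was below 0 (-0.15 to -0.04). The deviations of a genotype sum to 0, which forces some signs to differ, and BSKO 2 was included. Whether the genotypes share the split was not tested. The fits that leave out BSKO 2 together with another change were chosen after seeing the data.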
